A study of Mus musculus with 12 samples.

Results

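The angiopoietins and angiopoietin-like genes described here are *Angpt1*, *Angpt2*, *Angptl1*, *Angptl2*, *Angptl4*, *Angptl6* and *Angptl7*, 7 of the 28995 genes listed in at least 1 of 3 tables of normalized counts. They were selected on their gene names and on being listed in all 3 tables, which requires reads, and the list was drawn up with earlier results of these data known. *Angpt4* and *Angptl8* are also in all 3 tables, were not on the list and are given beside it. All 7 members are annotated as protein coding, and all 7 had reads in each of the 12 libraries.

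Fibroblasts were isolated from the hindlimb skeletal muscles of 2 wild-type C57BL/10 mice at postnatal day 3. After 24 hours in charcoal-stripped serum, which removes steroids, the cells of each mouse were pooled and re-plated on 2 plates per mouse and treatment, again in stripped serum. The plates were then treated for 48 hours with 1 µM aldosterone, an agonist of the mineralocorticoid receptor (MR), with 1 µM spironolactone, an antagonist of the same receptor, or with the vehicle alone; all plates, treated ones included, received the solvent DMSO at the same dilution. Poly(A) RNA of 4 libraries per treatment was sequenced, and the comparisons ask what these treatments change in the cells. No plate received aldosterone together with spironolactone, so the part of MR in the changes was not tested. The labels number the libraries of a treatment by sample (1 or 2) and, within it, by biological replicate (1 or 2), without saying which of these numbers is the mouse; 2_1 below is replicate 1 of sample number 2. With cells of 2 mice only, p-values measure the spread between these libraries and not between many animals.

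Angiopoietins are secreted ligands of the receptor tyrosine kinase Tie2 (*Tek*): Angpt1 activates it and steadies vessels, and Angpt2 often acts as its context-dependent antagonist. Angiopoietin-like proteins share the coiled-coil and fibrinogen-like domain build but do not bind Tie2. Some of them, such as Angptl4, inhibit lipoprotein lipase, and others, such as Angptl2, signal through integrins and immunoglobulin-like receptors in inflamed tissue.

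Between 19136923 and 30219185 reads per library fell on genes. All 7 fibroblast markers examined had reads in every group, with a summed level of 4098 to 5851 RPKM (reads scaled to gene length and library total) over the 12 libraries. The 9 endothelial markers in the tables summed to 5.46 to 7.18 RPKM, and the endothelial marker *Pecam1* had a mean of 2.89 to 6.64 normalized counts in the 3 groups. The steroid receptor target *Fkbp5* was higher with aldosterone than with vehicle by 4.26 ± 0.08 (log2, SE), or 19.2-fold. The MR gene itself, *Nr3c2*, had means of 37.9 normalized counts with vehicle, 14.7 with aldosterone and 27.9 with spironolactone. Those of the glucocorticoid receptor gene, *Nr3c1*, were 2914, 2196 and 2808. Aldosterone differed from vehicle by -1.21 ± 0.42 (log2) for *Nr3c2* (limma, adjusted p = 0.0853; 0.00794 blocked on sample number). For *Nr3c1* it differed by -0.41 ± 0.05 (adjusted p = 6.48e-05). In bulk libraries, a smaller share of cells of some type and less RNA per cell cannot be told apart.

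Promoter sequences from RefSeq (build GRCm38.p6, 250 bases before to 50 after the gene start) were found for 4 of the 7 members, *Angptl1*, *Angptl2*, *Angptl6* and *Angptl7*. The 250 bases before the start are shown for 3 of these 4, whose levels with aldosterone lay wholly apart from those of both other treatments; *Angpt2*, of which the same was true, has no entry, nor have *Angpt1* and *Angptl4*. They are *Angptl7* at chr4:148500463-148500712 (minus strand), *Angptl1* at chr1:156838773-156839022 (plus strand) and *Angptl2* at chr2:33215711-33215960 (plus strand), each written 5′ to 3′ along the gene.
Angptl7: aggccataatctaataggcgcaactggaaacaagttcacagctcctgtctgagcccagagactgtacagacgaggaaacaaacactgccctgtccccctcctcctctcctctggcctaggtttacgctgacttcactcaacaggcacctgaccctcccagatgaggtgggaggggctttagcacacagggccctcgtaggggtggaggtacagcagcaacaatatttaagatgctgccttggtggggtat
Angptl1: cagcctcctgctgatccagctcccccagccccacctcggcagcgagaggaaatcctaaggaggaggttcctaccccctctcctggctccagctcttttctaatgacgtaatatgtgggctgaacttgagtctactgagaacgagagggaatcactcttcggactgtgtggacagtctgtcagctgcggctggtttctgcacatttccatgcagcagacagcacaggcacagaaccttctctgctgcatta
Angptl2: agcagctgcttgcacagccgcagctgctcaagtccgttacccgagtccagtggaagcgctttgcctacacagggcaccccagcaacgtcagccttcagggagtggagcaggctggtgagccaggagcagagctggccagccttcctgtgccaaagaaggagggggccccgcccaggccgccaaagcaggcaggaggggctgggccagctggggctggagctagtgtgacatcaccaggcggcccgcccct
Capitals would mark AGAACA on either strand, the hexamer recognised by steroid receptors of this class, or TATAAA on the gene's strand, and no letter is a capital because neither was found in any of the 4 promoters. Over all 32851 promoters of the table, 19.0% held AGAACA on either strand and 8.32% held TATAAA on the gene's strand. The inverted repeat of AGAACA with 3 bases between was in 3 of all promoters, 0.00913%, and ACGTG, the core of the hypoxia response element, on either strand in 19.6%; neither was in the 4 promoters. The absence says only that these letters are not in the 300 bases searched. The GC content of the 300 bases was 51.3% for *Angptl7*, 54.3% for *Angptl1*, 55.7% for *Angptl6* and 66.7% for *Angptl2*, beside a median of 52.7% over all promoters.

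The levels of the members spanned a wide range and kept nearly the same order in every treatment. Per length, *Angptl2* was the highest with vehicle at 20.9 ± 1.0 RPKM (SD, n = 4), followed by *Angptl7* at 15.8 ± 1.6. *Angptl6* followed at 5.14 ± 1.08 RPKM, *Angpt1* at 3.19 ± 0.67, *Angptl1* at 1.44 ± 0.39, *Angptl4* at 0.772 ± 0.208 and *Angpt2* at 0.184 ± 0.034. Each of these neighbours lay apart from the next, with no overlap of the 4 vehicle libraries.

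With spironolactone the order was the same, but *Angptl2* (19.5 to 21.0 RPKM) and *Angptl7* (15.9 to 23.2 RPKM) overlapped. With aldosterone *Angptl7* moved to the top at 125.4 ± 29.4 RPKM, above *Angptl2* at 15.7 ± 0.6. There 311 of 26161 genes had a higher mean level per length than *Angptl7*, against 2919 with vehicle. *Angptl6* and *Angpt1* (4.06 to 5.00 and 3.63 to 5.23 RPKM) overlapped with aldosterone, and so did *Angptl4* and *Angptl1* (0.679 to 1.15 and 0.496 to 0.892 RPKM). In the plot of levels per length, *Angptl7* with aldosterone stands above all other points.

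**Figure D1:**
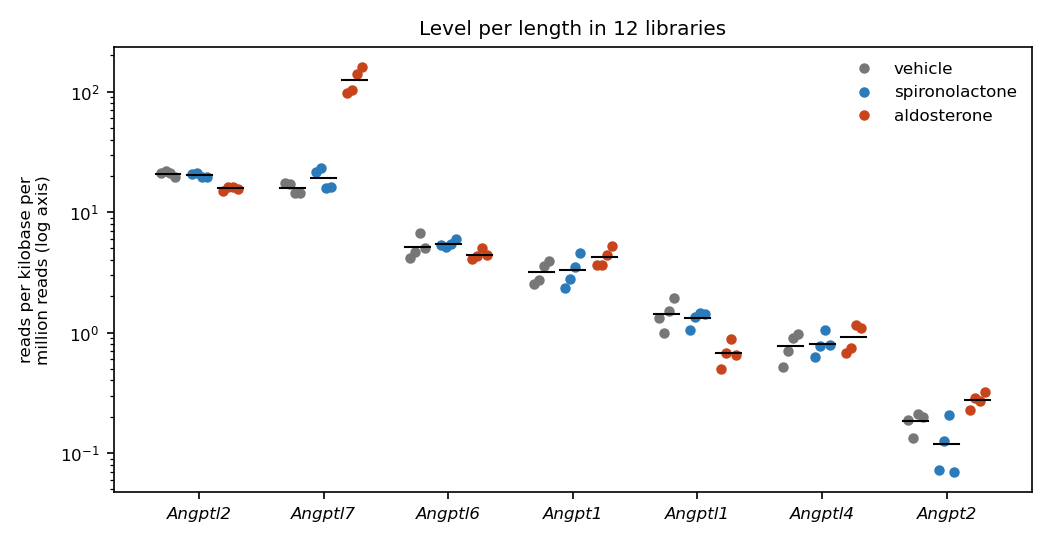
Level of each member in RPKM, reads scaled to gene length and to the library's reads on genes (log axis), 1 point per library and a bar at the mean of 4 libraries, by treatment. *Angptl7* with aldosterone, at 97.8 to 159.4, is the highest, and *Angpt2* is the lowest member in every treatment.

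Aldosterone raised *Angptl7* and lowered *Angptl1* and *Angptl2* relative to vehicle, while the ligand *Angpt1* was slightly higher. Under the call rule with no fold threshold (adjusted p of 0.05 or less), 2 of 7 members were higher and 2 were lower; over all 27319 genes of the table, 5.68% were called higher and 4.74% lower. At the additional threshold of a log2 fold change of 1, 1 member was higher (*Angptl7*; 1.4% of all genes) and 1 was lower (*Angptl1*; 0.666% of all genes). The median log2 fold change of the 7 members was 0.29, beside -0.01 over all genes. Since the list was drawn up with results known, these p-values, from limma with Benjamini-Hochberg adjustment over the whole table, are no independent support for its choice. The 4 aldosterone libraries lay wholly above the 4 vehicle libraries for 2 members, against 7.55% of all genes, and wholly below for 2, against 6.9%.

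Against spironolactone, 2 members were higher with aldosterone (*Angptl7* and *Angpt2*) and 2 were lower (*Angptl1* and *Angptl2*) at any fold, beside 4.93% and 3.96% of all 27631 genes. At both thresholds 2 were higher, against 1.38% of all genes, and 0 were lower, against 0.521%. The median log2 fold change of the members was 0.21, beside -0.01 over all genes. The aldosterone libraries lay wholly above those with spironolactone for 2 members (6.76% of all genes) and wholly below for 3 (6.22%). Both comparisons share the aldosterone libraries. In a paired fit, blocked on sample number, 2 of 7 members were higher and 2 lower against vehicle, beside 8.68% and 8.02% of all genes, and 3 were higher and 2 lower against spironolactone, beside 7.58% and 6.8%.

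Between spironolactone and vehicle, 0 of 7 members passed limma's test, as did 0% of all 27598 genes, of which 1251 had an unadjusted p under 0.05. By edgeR 0 of 15225 genes passed and by DESeq2 13 of 26400 did. The libraries of these treatments overlapped for all 7 members, while 1.39% of all genes lay wholly higher with spironolactone and 1.24% wholly lower. The intervals given below show how large a difference each comparison leaves possible.

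**Figure D2:**
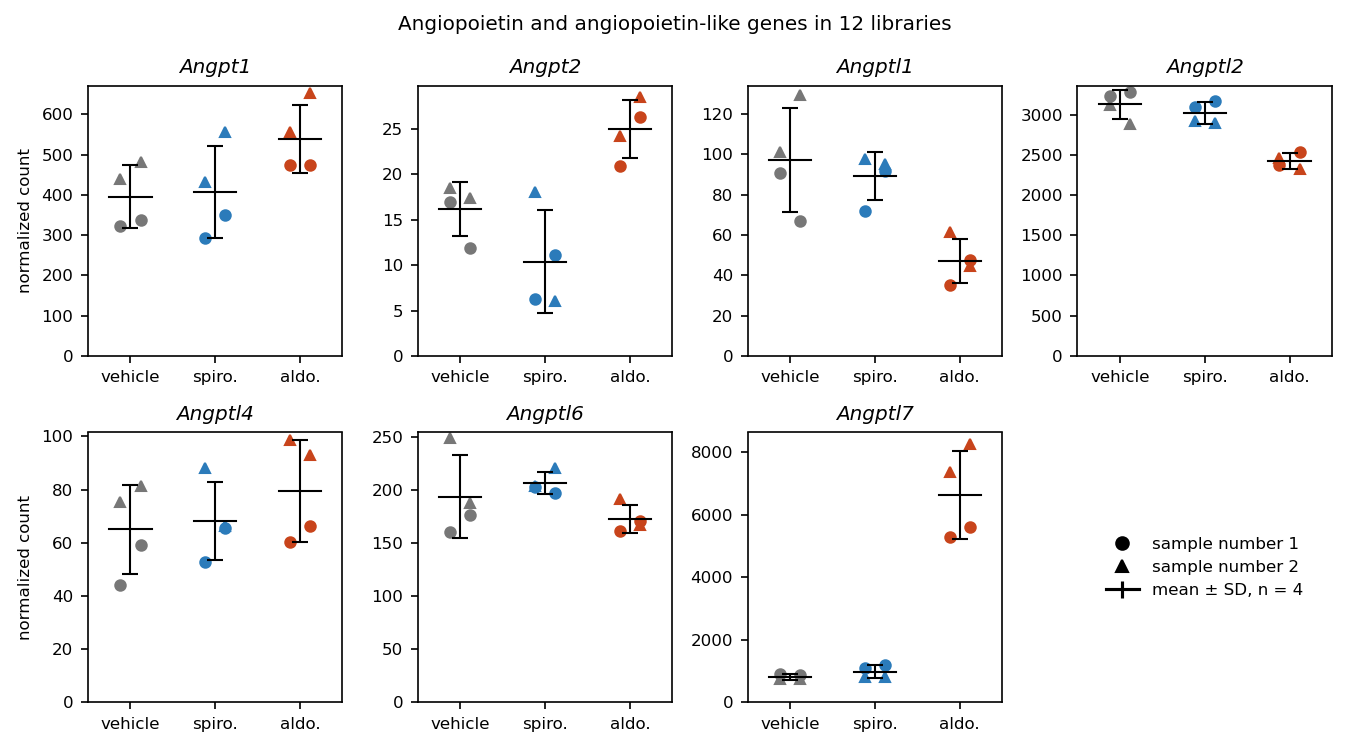
Normalized counts of each member in the 12 libraries (linear axes from 0), by treatment, with circles for sample number 1, triangles for sample number 2 and bars for the mean ± SD of 4 libraries. The *Angptl7* libraries with aldosterone, at 5287 to 8243, sit above all 8 others.

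**Figure D3:**
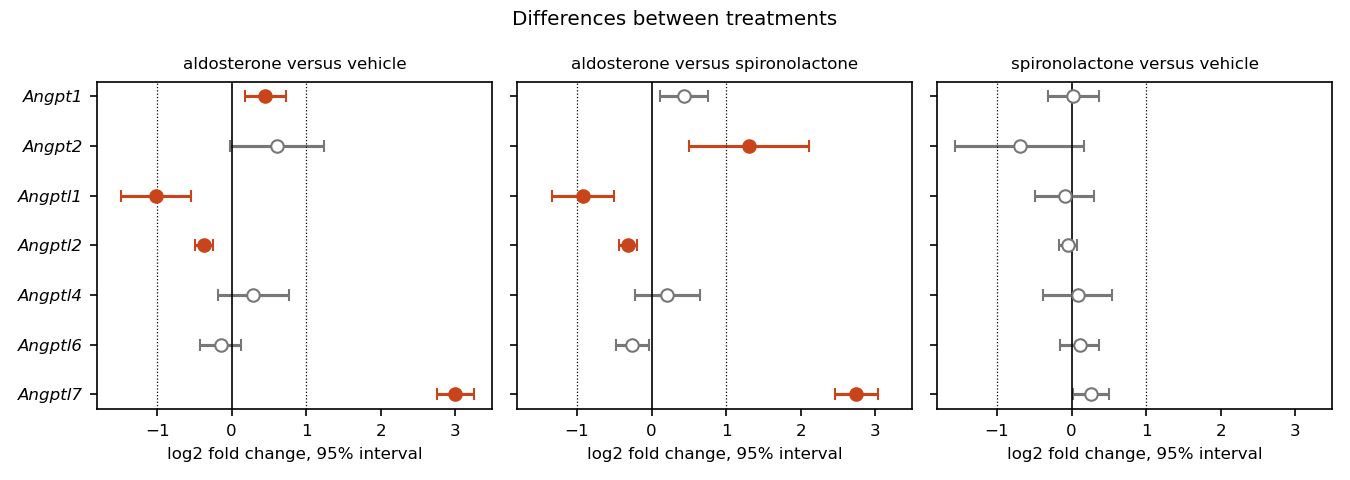
Log2 fold change with its 95% interval from limma for each member in the 3 comparisons; filled points passed an adjusted p of 0.05 and dotted lines mark a log2 fold change of 1 in either direction. *Angptl7* stands at 3.00 against vehicle and 2.75 against spironolactone, and no member passed between spironolactone and vehicle.

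*Angpt1*, the Tie2 agonist, had 322.3, 336.7, 440.6 and 481.4 normalized counts in the vehicle libraries, listed here and below as sample number 1 (replicates 1 and 2) and then sample number 2, on a scale set over all 12 libraries. With aldosterone it had 473.7, 473.2, 555.1 and 652.2, and with spironolactone 292.2, 350.5, 432.6 and 556.1. The aldosterone libraries were above the vehicle libraries of the same sample number, but the groups overlapped, as the highest vehicle library (481.4) was above both aldosterone libraries of sample number 1.

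The log2 fold change of *Angpt1* against vehicle was 0.45 ± 0.13 (SE; limma, adjusted p = 0.0345; exact permutation p = 0.0857, two-sided). Without any 1 of the 8 libraries the adjusted p from limma was 0.0785 to 0.263, so the call was lost in all 8 cases. Blocking on the sample number, the adjusted p was 1.6e-05, and the call was kept without any 1 library (0.00181 to 0.0129). Against spironolactone it was 0.43 ± 0.15 (adjusted p = 0.105). In the blocked fit the latter passed (adjusted p = 0.000194 from limma; 7.58% of all genes passed as higher), but without 1 library each the adjusted p was 0.0122 to 0.116 and only 2 of 8 such blocked fits passed, those without aldosterone 2_1 or spironolactone 2_2. Between spironolactone and vehicle it was 0.03, with a 95% interval of -0.31 to 0.37.

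*Angpt2*, the context-dependent Tie2 antagonist, was the scarcest member, with 6 to 36 reads per library. It had 17.0, 11.8, 18.5 and 17.4 normalized counts with vehicle, 20.9, 26.3, 24.2 and 28.6 with aldosterone, and 6.33, 11.2, 18.1 and 6.02 with spironolactone. All 4 aldosterone libraries were above all 8 others.

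Against spironolactone the log2 fold change of *Angpt2* was 1.31 ± 0.38 (limma, adjusted p = 0.0388). Leaving out any 1 library but spironolactone 2_1 ended that call, with an adjusted p of 0.0862 to 0.153, and without spironolactone 2_1 it was 0.0219. Against vehicle it was 0.61 ± 0.30 and did not pass (adjusted p = 0.264). Between spironolactone and vehicle it was -0.70, with an interval of -1.56 to 0.17. The span of *Angpt2* lies whole within that of *Mcph1*, on the other strand. *Mcph1* had 282.6 to 346.6 normalized counts with vehicle and 251.5 to 332.4 with aldosterone. Its log2 difference was -0.15 ± 0.10 against vehicle (limma, adjusted p = 0.466) and -0.19 ± 0.10 against spironolactone (adjusted p = 0.357).

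*Angpt4*, the other angiopoietin in the tables, had 39.5 to 58.3 normalized counts with vehicle, 62.4 to 89.0 with aldosterone and 37.2 to 59.1 with spironolactone. Its aldosterone libraries also lay above all 8 others, but neither difference passed limma's unblocked test (log2 fold change 0.43, adjusted p = 0.216 against vehicle; 0.58, adjusted p = 0.121 against spironolactone). Blocked on the sample number, the latter passed (adjusted p = 0.0397).

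Of the angiopoietin receptors and their partners on the cell surface, all 6 listed genes were in the tables, and 1 was higher and 1 lower with aldosterone than with vehicle, with a median log2 fold change of 0.01. *Itga5*, an integrin subunit, rose by 0.92 ± 0.12 (limma, adjusted p = 6.73e-05) and *Itgav*, another, fell by 0.32 ± 0.07 on the log2 scale (adjusted p = 0.00374). The receptor *Tek* had 430.7 to 481.4 normalized counts with vehicle and 488.8 to 568.9 with aldosterone, a log2 difference of 0.23 ± 0.08 (adjusted p = 0.0694; 0.0147 with the block). Against spironolactone *Tek* passed (0.29 ± 0.08, adjusted p = 0.0299), and 2 of the 6 genes were higher and 1 lower. With the block 3 were higher and 1 lower in both comparisons, *Itgb1* being added to *Itga5* and *Tek*. Its relative *Tie1*, which is otherwise abundant in endothelial cells, had at most 3.70 normalized counts in any library.

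*Angptl7*, a secreted protein known from the cornea and the trabecular meshwork of the eye and inducible there by glucocorticoids, had the largest change among the members. It had 915, 874.8, 731.8 and 738.9 normalized counts with vehicle and 1104, 1203, 808.9 and 820.1 with spironolactone. With aldosterone it had 5287, 5608, 7354 and 8243. The aldosterone libraries were far above all 8 others.

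The log2 fold change of *Angptl7* was 3.00 ± 0.12 against vehicle, or 8.01-fold (limma, adjusted p = 5.3e-11; 95% interval 2.75 to 3.25). It was 2.75 ± 0.14 against spironolactone, or 6.71-fold (adjusted p = 3.21e-10). The exact permutation p was 0.0286 in both, the smallest that 4 against 4 libraries can give.

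The span of *Angptl7* (chr4:148579640-148584917, minus strand, in the tables' positions, build mm39) lies whole within that of *Mtor*, on the other strand, and the sources used here do not state whether reads were counted by strand. *Mtor* had 1694 to 1909 normalized counts with vehicle and 2087 to 2458 with aldosterone, a log2 difference of 0.33 ± 0.06 (limma, adjusted p = 0.00199). In the NCBIM37 annotation the exons of the 2 genes share 0 bases.

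Spironolactone and vehicle differed little for *Angptl7*, by 0.26 ± 0.11 (limma, unadjusted p = 0.0378, adjusted p = 0.934). In each sample number both spironolactone libraries were above both vehicle libraries. Blocking on the sample number gave an adjusted p of 0.029 with limma, where 0.228% of all genes passed as higher, of 0.0244 with DESeq2 and of 0.0494 with edgeR. Leaving out any 1 library from the blocked limma fit gave an adjusted p of 0.42 to 0.793, so this call too was lost in all 8 cases.

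*Angptl2*, a pro-inflammatory member of the family, was the most abundant angiopoietin-like gene with vehicle and fell with aldosterone. It had 3237, 3276, 3121 and 2881 normalized counts with vehicle, 3097, 3174, 2916 and 2890 with spironolactone, and 2369, 2540, 2465 and 2325 with aldosterone. All 4 aldosterone libraries were below all 8 others.

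The log2 fold change of *Angptl2* was -0.37 ± 0.06 against vehicle (limma, adjusted p = 0.000339) and -0.32 ± 0.06 against spironolactone (adjusted p = 0.000887), a change of less than the fold threshold in both. Between spironolactone and vehicle it was -0.05, with an interval of -0.17 to 0.07. *Ralgps1*, within whose span on the other strand *Angptl2* lies, differed by -0.06 ± 0.13 (adjusted p = 0.842).

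*Angptl1*, an angiopoietin-like protein described as an inhibitor of vessel sprouting, fell by about as much as the fold threshold. It had 90.7, 67.1, 101.2 and 129.3 normalized counts with vehicle, 71.7, 91.8, 97.8 and 95.4 with spironolactone, and 35.3, 47.8, 61.5 and 44.4 with aldosterone. The highest aldosterone library was below the lowest of the 8 others.

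The log2 fold change of *Angptl1* was -1.01 ± 0.22 against vehicle (limma, adjusted p = 0.00612), just past the fold threshold, and -0.92 ± 0.20 against spironolactone (adjusted p = 0.00511), just short of it. With TMM scaling the former was -0.99, which ends the call at both thresholds but not that at any fold. In the unblocked fit, without any 1 of 6 of the 8 libraries (all but aldosterone 2_1 and vehicle 1_2) the adjusted p against vehicle was 0.0554 to 0.0741, and without 1 of the other 2 it was 0.0311 and 0.0191. Against spironolactone the adjusted p was 0.0524 to 0.0598 without aldosterone 2_2 or spironolactone 1_2, 2_1 or 2_2. Blocked on the sample number, *Angptl1* was kept without any 1 library in both comparisons (adjusted p 0.0117 to 0.0342 against vehicle and 0.0116 to 0.0347 against spironolactone). *Ralgps2*, which holds *Angptl1* on the other strand, differed by 0.39 ± 0.25 (adjusted p = 0.438) against vehicle.

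*Angptl4* and *Angptl6* did not pass in any comparison. *Angptl4*, the fasting-induced inhibitor of lipoprotein lipase, had 44.1 to 81.5 normalized counts with vehicle, 52.7 to 88.2 with spironolactone and 60.2 to 98.7 with aldosterone, all overlapping. Its log2 fold change was 0.29 against vehicle (95% interval -0.18 to 0.77, limma, adjusted p = 0.528) and 0.21 against spironolactone (-0.22 to 0.65, adjusted p = 0.665).

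*Angptl6*, known for effects on metabolism and on angiogenesis, had 160.3 to 249.3 normalized counts with vehicle, 197.2 to 220.8 with spironolactone and 161.0 to 191.9 with aldosterone. The aldosterone libraries lay wholly below those with spironolactone, by 0.26 ± 0.10 on the log2 scale, without passing the test (limma, adjusted p = 0.16). Against vehicle the log2 fold change was -0.15 (interval -0.43 to 0.13, adjusted p = 0.602). In the NCBIM37 annotation 16.9% of its exon bases are shared with a gene on the other strand (*A230050P20Rik*), as are 6.65% of those of *Angpt1* with *Gm17473*, while the other 5 members share 0%.

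*Angptl8*, which takes part in the control of lipoprotein lipase, had 3 to 17 reads per library and did not pass in any comparison.

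The libraries of sample number 2 differed from those of sample number 1 for several members, a comparison that played no part in how the list is defined. With the treatment in the fit, 2 of 7 members were higher in sample number 2 and 0 were lower, beside 5.75% and 6.59% of all 26161 genes tested. *Angpt1* was higher by 0.48 ± 0.07 on the log2 scale (limma, adjusted p = 9.94e-06) and *Angptl4* by 0.52 ± 0.14 (adjusted p = 0.0101). In all 3 treatments both sample number 2 libraries were above both sample number 1 libraries for these genes, and both calls held without any 1 of the 12 libraries. With only 2 sample numbers, these p-values measure the spread between libraries and not between sample numbers.

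For *Angptl7* the direction differed by treatment. The libraries of sample number 2 were below those of sample number 1 with vehicle (735.4 against 894.9 normalized counts, means of 2) and with spironolactone (814.5 against 1154), and above them with aldosterone (7798 against 5447). If a sample number marks the same cells in every treatment, which the labels do not state, the aldosterone effect was larger in number 2. For the comparison with vehicle it was 3.40 on the log2 scale in sample number 2 against 2.60 in sample number 1. The difference of 0.80 ± 0.09 had an adjusted p of 0.0111 by limma over all genes of the table, of which 0.0146% passed, and 1 of 7 members.

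Against spironolactone the effect on *Angptl7* was 3.26 in sample number 2 and 2.24 in sample number 1, a difference of 1.02 ± 0.10 (limma, adjusted p = 0.00126; 0.0145% of all genes passed). Without any 1 library the differences stayed between 0.72 and 0.88 against vehicle and between 0.94 and 1.10 against spironolactone, but the adjusted p was then 0.253 to 0.459 and 0.0739 to 0.505. The other 6 members had an adjusted p of at least 0.895 for this difference in both comparisons. Between spironolactone and vehicle 0 of 7 members passed, as did 0% of all genes. Mouse, plating and sample number cannot be told apart from these labels, and the sex of the cells in each library was not examined.

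**Figure D4:**
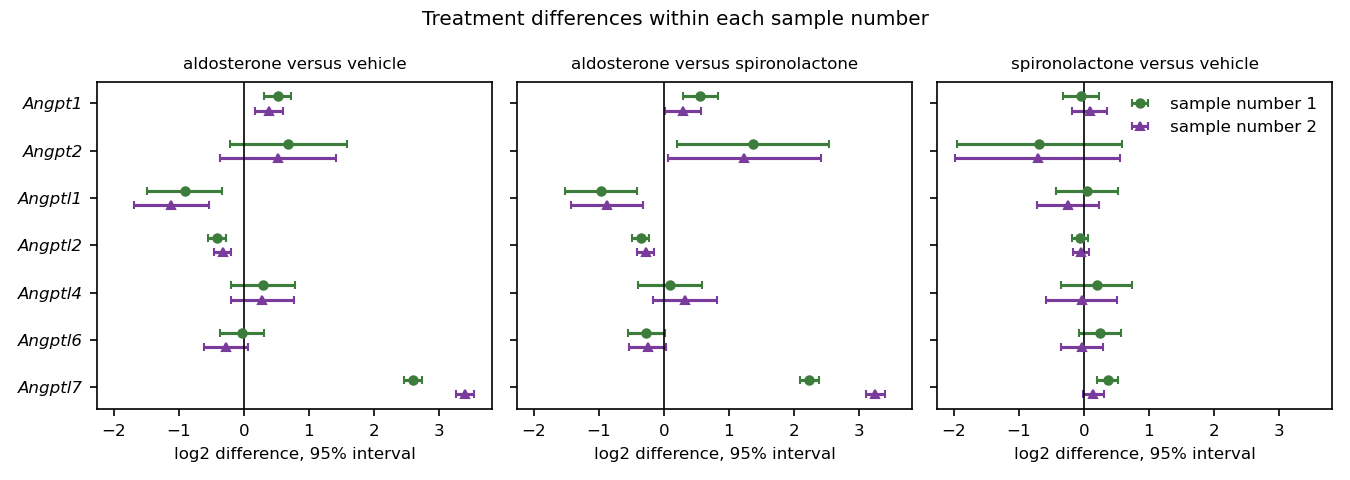
Log2 difference between treatments with its 95% interval from limma, estimated within sample number 1 (circles) and sample number 2 (triangles), 2 libraries per treatment each. For *Angptl7* the 2 estimates of the aldosterone effect, 2.60 and 3.40 against vehicle, lie apart, and for the other members the intervals of both sample numbers overlap in every comparison.

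Across the 12 libraries, which share treatments and sample numbers, the genes whose log2 CPM was most like that of *Angptl7* among 15275 others with a mean of at least 10 were *Gpx3*, *Fth1* and *Fam107a* (Pearson's r from 0.989 to 0.992). For *Angptl2* they were *Cthrc1*, *Gxylt2* and *Eif4g2* (r = 0.980, 0.980 and 0.980), and for *Angptl1* *Tlcd4*, *Rnf122* and *Zcchc18* (r = 0.978, 0.960 and 0.954). For *Angpt1* they were *Gpbp1l1*, *Hapln1* and *Kif13b* (0.970, 0.966 and 0.952), and for *Angpt2* they included *Add1* and *Gnai1* (0.912 and 0.904). For *Angptl4* they were *Cnnm3*, *Ehmt2* and *Atp7a* (0.948, 0.941 and 0.931), and for *Angptl6* *Rbck1*, *Zfp575* and *Slc39a1-ps* (0.922, 0.888 and 0.887).

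Taking deviations from the treatment means instead, the nearest genes were *Igf1*, *Gpd1l* and *Thrb* for *Angpt1* (r = 0.971, 0.968 and 0.966) and included *Cnnm3* and *Atp7a* for *Angptl4* (r = 0.971 and 0.965). They were *Eif2s3y*, *Tank* and *Zcrb1* for *Angptl7* (0.964, 0.934 and 0.897), *Taf13*, *Ccl9* and *Nxt2* for *Angptl2* (0.922, 0.908 and 0.907) and *Gm14322*, *Gm18649* and *Oplah* for *Angptl1* (0.956, 0.942 and 0.941). They were *Urm1*, *Mfsd13b* and *Morf4l1-ps1* for *Angpt2* (0.934, 0.910 and 0.906) and *Dcaf11*, *Fmo2* and *Zfp563* for *Angptl6* (0.951, 0.923 and 0.919). Among the members themselves, the deviations of *Angpt1* and *Angptl4* had r = 0.747 over the 12 libraries. The levels of *Angptl7* and *Angptl2* had r = -0.926, but their deviations from the treatment means had r = 0.506.

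Reported receptors of angiopoietin-like proteins were also examined. Of 7 listed genes 5 were in the tables, and 1 was higher and 2 were lower with aldosterone than with vehicle, the latter being the integrin subunits *Itgav* and *Itgb3* (-0.36 ± 0.08, limma, adjusted p = 0.00583). With the block 2 were higher and 2 lower. *Pirb*, the mouse relative of a receptor reported for Angptl2, had a mean of about 1 normalized count or less in every group (0.466 to 1.06).

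Of the lipoprotein lipase system that Angptl4 acts on, 11 of 14 listed genes were in the table, and 0 passed in either direction against vehicle in the unblocked limma fit (median log2 fold change -0.02), against 2 higher and 1 lower with the block. *Lpl*, lipoprotein lipase itself, had a log2 difference of 0.39 ± 0.12 against vehicle (limma, adjusted p = 0.0525; 5.51e-05 with the block) and rose by 0.54 ± 0.13 against spironolactone (adjusted p = 0.0108). The 4 proprotein convertases listed, which cleave several of these proteins, did not pass in either comparison without the block. *Pcsk6* had the largest difference, -0.49 ± 0.16 against vehicle (limma, adjusted p = 0.0713), and with the block it was lower both against vehicle (adjusted p = 8.07e-10) and against spironolactone (adjusted p = 3.46e-09), while the other 3 did not pass.

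Of the PPAR system, whose lipid-activated receptors induce *Angptl4*, 2 of 11 listed genes were higher with aldosterone than with vehicle and 0 were lower (median log2 fold change 0.15). Among them was *Pdk4*, an inhibitor of pyruvate use (2.73 ± 0.08, limma, adjusted p = 6.08e-13). Against spironolactone 4 of 11 were higher. With the block 5 were higher against vehicle.

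Other proteins with a fibrinogen-like domain were examined as relatives in structure. Of 12 listed genes 9 were in the table, and 1 was higher and 3 were lower with aldosterone than with vehicle, with a median log2 fold change of -0.67 over the 9. The 3 were *Fibcd1* (-1.53 ± 0.26, limma, adjusted p = 0.000822), *Mfap4* (-0.89 ± 0.09, adjusted p = 6.49e-06), a protein of elastic fibres, and the matrix protein tenascin C, *Tnc* (-0.67 ± 0.11, adjusted p = 0.000658). *Tnxb*, tenascin X, rose by 0.62 ± 0.07 (adjusted p = 1.49e-05). The same counts, 1 higher and 3 lower, held against spironolactone.

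The VEGF ligands and receptors, the other main family of vessel growth signals, had 6 genes higher and 1 lower of 10 with aldosterone against vehicle, with a median log2 fold change of 0.57. The ligand *Vegfd* rose by 1.47 ± 0.06 (limma, adjusted p = 4.57e-11) and *Vegfc* by 1.08 ± 0.10 (adjusted p = 1.77e-06), both ligands of the lymphatic receptor. The receptors *Kdr* (1.88 ± 0.35, adjusted p = 0.00183) and *Flt1* (1.14 ± 0.16, adjusted p = 0.000103) rose as well. *Vegfa*, the ligand of blood vessel growth, was the gene that fell (-0.51 ± 0.08, adjusted p = 0.000486). With the block the co-receptor *Nrp2* was lower too (-0.42, limma, adjusted p = 2.71e-09).

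Markers of some other cell types also differed between aldosterone and vehicle. Over all genes of the table, 5.68% were called higher and 4.74% lower in the unblocked fit. The 9 endothelial markers in the tables summed to 656.4 to 685.7 normalized counts with vehicle and 815.7 to 835.5 with aldosterone, with 1 of 9 markers higher and 0 lower. That sum includes *Tek* (means of 449.0 with vehicle and 528.9 with aldosterone) and *Kdr* (45.7 and 170.1). *Erg* (111.0 and 68.6), *Egfl7* (30.81 and 22.45), *Pecam1* (6.64 and 2.89) and *Tie1* had lower means with aldosterone, and *Cdh5*, *Emcn* and *Vwf* higher ones. All 6 adipocyte markers were in the table and summed to 199.4 to 307.3 with vehicle and 952.3 to 1219 with aldosterone, with 2 higher and 0 lower, and *Lep* was at 0 in every vehicle library. The 9 pericyte and smooth muscle markers summed to 22956 to 30341 and 18599 to 27403, with 0 past the unblocked test and, with the sample number block, 5 lower, among them *Cnn1* (limma, adjusted p = 2.32e-11), *Mcam* (1.71e-06) and *Cspg4* (1.24e-05). Of 6 tendon markers 0 were higher and 3 lower, with sums of 52494 to 57906 and 52134 to 58780. The 4 myogenic markers in the tables summed to 520.5 to 763.2 with vehicle and 205.5 to 444.9 with aldosterone, with 0 higher and 1 lower. The lower one was *Acta1*, with means of 544.9 with vehicle and 239.4 with aldosterone. *Myod1* (2.61 and 1.85) and *Myog* (1.87 and 1.49) were near 0 in both groups. The 6 macrophage markers summed to 254.3 to 320.6 and 246.8 to 282.7 with 0 past the test. Among them *Adgre1* had 0 reads with vehicle and at most 3 per library with aldosterone. The 4 Schwann cell markers summed to 242.9 to 327.1 and 318.0 to 457.8 with 1 higher. Of the 7 fibroblast markers 1 was higher and 1 lower. With the block, the counts higher and lower against vehicle were 1 and 6 for fibroblast, 2 and 1 for endothelial, 1 and 4 for tendon and 3 and 0 for adipocyte markers, and those of the myogenic, macrophage and Schwann cell markers were as without it. The part of any of these in the changes of the members was not tested.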

How the data were processed

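RNA from 12 plates was sequenced, 4 per treatment. Per the labels and methods, mRNA was enriched by poly(A) selection. The submitters' processing notes name HISAT2 2.0.5, featureCounts 1.5.0-p3 and build mm39, while the methods name mm9; of 20676 genes matched to the NCBIM37 annotation, 8 had the same start, so table positions are given as mm39. A strand setting is not given in the sources used here. The authors deposited, for each pair of treatments, a table of normalized counts (signal: reads per gene over the library's size factor). Columns of the authors' own DESeq2 comparisons, deposited alongside as log2 fold changes and as raw and adjusted p-values, were not used.

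Dividing by each column's smallest step gave back the reads (100% of values whole within 0.01 in 22 columns; the other 2 columns had steps too close to 1, and the same libraries' reads came from another table). They sum to 19136923 to 30219185 per library, and 26161 genes had reads listed for all 12. Counts per library in the text were scaled over all 12 libraries by median-of-ratios size factors; fold changes come from the pair tables. The test was limma 3.58.1 (R 4.3.3, trend) on log2(normalized count + 1) for every gene of a table, with Benjamini-Hochberg adjustment, with calls made at an adjusted p of 0.05 or less, either at any fold or only past a log2 fold change of 1 up or down. A fold change on this scale understates that of low genes. Single genes were also compared by exact two-sided permutation over libraries. The tests were run on simulated data first.

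The members and gene lists were chosen with earlier results of these data known. Named genes are every member, other family genes in the tables, genes overlapping a member and the genes most like each. Up to 4 genes of each list are also named, those with the largest change at a mean of at least 10. *Tie1*, *Pirb*, *Vegfa*, *Nrp2*, *Pecam1*, *Emcn*, *Myod1*, *Myog*, *Cnn1*, *Mcam*, *Cspg4*, *Adipoq*, *Lep* and *Adgre1* fall outside that rule and were chosen after their values were seen. Libraries with the same sample number deviated together (24 pairs between treatments, r = 0.139 to 0.295, each over 0.1), so the sample number was taken to pair them; the biological replicate number did not (mean r = -0.00549). Alternatives were an added value of 0.5, a mean of at least 10, TMM scaling (edgeR 4.0.16), DESeq2 1.42.0 and edgeR on the recovered reads, either number as a replicate block, plates correlated within a sample number, and leaving out each library. The sample number comparison, its interaction with treatment and the blocked DESeq2 and edgeR fits were chosen after seeing the data. Proteins, western blots and cells of other mice were not analysed here, and some genes that the naming rule covers are not reported here.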

Additional observations from a re-analysis of the deposited data

Results flagged for a closer look

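The aldosterone effect on *Angptl7* differed between the 2 sample numbers, by 0.80 on the log2 scale (number 2 minus 1) against vehicle and by 1.02 against spironolactone, as tested by an interaction term in limma, an alternative chosen after seeing the data. edgeR gave 0.81 (adjusted p = 0.000868) and 1.02 (adjusted p = 6.12e-05), and DESeq2 gave 0.80 (adjusted p = 1.54e-09) and 1.02 (adjusted p = 5.68e-16). Leaving out any 1 library, the limma test passed in 0 of 8 cases in both comparisons. The labels do not state that a sample number marks the same cells in every treatment. In the 21 groups of 4 libraries, no member had a single library far from the other 3 by Dixon's criterion, which chance meets in about 1 of 20 groups.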

How the results depend on the processing

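No result changed its direction while called. In the comparison with vehicle, the count of members called at both thresholds was 2, and 1 with TMM scaling; without 1 library each it was 1 to 2, and the count at any fold, 4, was 2 to 3. Against spironolactone the count at both thresholds, 2, was 1 with the biological replicate number as a replicate block and 1 with plates correlated within a sample number; without 1 library each it was 1 to 2, and the count at any fold, 4, was 2 to 3. Between spironolactone and vehicle the count at any fold, 0, was 1 (*Angptl7*) in the paired limma fit (replicate block by sample number) and 1 in DESeq2 and in edgeR with that block; without 1 library it was 0. Of single members, the sample number block changed 1 further call, that of *Angpt1* against spironolactone (adjusted p = 0.000194), and no other. *Angpt1* against vehicle lost its call with plates correlated (adjusted p = 0.0528), and *Angpt2* against spironolactone with plates correlated (0.113) and with the biological replicate number as a block (0.0541). The causes were not tested. *Angptl7* and *Angptl2* kept their calls against both in every alternative run; for *Angptl7* the log2 fold change was 2.89 to 3.10 against vehicle and 2.63 to 2.85 against spironolactone over the fits that leave out 1 library. Without a length correction *Angpt1* ranked 3 and *Angptl6* ranked 4 in every treatment. Depth limits *Angpt2* and *Angptl8*, which had few reads.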
